A study of Mus musculus with 6 samples.

Results

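Ribosome assembly and rRNA processing factors are the nucleolar proteins that cut, modify and fold ribosomal RNA and build the small and large ribosomal subunits. A fixed list of 48 such genes was followed on 6 Affymetrix arrays of 4T1, a line of mouse mammary carcinoma cells, 3 from dishes given 500 nM TKI258 for 16 h and 3 from dishes given the vehicle DMSO for 16 h. TKI258, or dovitinib, is an inhibitor of receptor tyrosine kinases that include the FGF receptors. The labels name no other agent or allele in either group, and a single cell line was used. All dishes were seeded with 750000 cells and grown for 24 h in medium with 10% serum before the change of medium. The list was chosen with earlier results of these data known. Genes were taken by name from probe sets with exactly 1 annotated symbol, and the brightest probe set stood for a gene. This gave 47 of the 48 genes among 19938 measured genes, since Noc2l had no such probe set. The factors were sorted by textbook function into 17 small-subunit factors, 18 large-subunit factors (17 measured), 8 proteins of small nucleolar ribonucleoproteins (snoRNPs) and 5 general nucleolar proteins. The last class includes Pprc1, a coactivator gene listed with the factors though it does not encode an assembly factor.

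The nucleolus transcribes a long precursor RNA that holds the sequences of the mature 18S, 5.8S and 28S rRNAs. Box C/D snoRNPs methylate riboses and box H/ACA snoRNPs convert uridines to pseudouridines at sites set by their guide RNAs, while the U3 particle and a large complex, the small-subunit processome, fold and cleave the part that becomes the small subunit. Separate sets of GTPases, methyltransferases and WD-repeat proteins mature the large subunit. The genes of this machinery are known targets of the MYC transcription factor, and their output is tied to cell growth.

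Array medians lay between 4.97 and 5.04 log2 units, and correlations over all genes were 0.9969 to 0.9984 within groups against 0.9884 to 0.9896 between groups. The epithelial identity of the line was checked with 6 markers, of which Krt8 (mean 11.8 in TKI258 and 11.9 log2 units in DMSO arrays) was the brightest. Cdh1, Krt19 and Cldn4 rose and Krt18 fell. Mean levels of 6 lymphocyte markers were 4.09 to 4.14 in TKI258 and 4.06 to 4.15 in DMSO arrays, below the array medians. Those of 6 macrophage markers were 4.68 to 4.82 against 4.5 to 4.52, with Cd68 and Cd14 higher and Ptprc, Csf1r, Adgre1 and Itgam at means of 3.4 to 3.81, and those of 6 fibroblast markers 5.08 to 5.14 against 4.65 to 4.74, with Dcn higher. The part of these markers in the results below was not tested. A smaller share of cells expressing a gene and less of its RNA per cell cannot be told apart in such bulk samples.

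All 47 measured genes of the list, called factors here, were lower after TKI258. Each passed an adjusted p below 0.05 in limma (Benjamini-Hochberg over 19938 genes, n = 3 arrays per group), and 0 rose. Over all genes 12.6% were called lower and 14.4% higher, and of the 5865 genes at least as bright as the dimmest factor 27.5% were called lower. In 47 of 47 factors every TKI258 array lay below every DMSO array, a pattern seen in 18.8% of all genes, while 40.2% had groups apart in either direction. The median log2 change was -0.70, which leaves 61.7% of the DMSO signal on the linear scale, while the median over all genes was 0.01. Changes ran from -1.22 in Lyar to -0.31 in Imp3, so the range held no gene near 0. A log2 change below -0.5 was found in 38 factors and in 4.64% of all genes. A fall of at least 2-fold was found in 3 factors, Lyar, Rrp12 and Rrp9, and in 0.697% of all genes. That count was 1 (Lyar) without TKI258 replicate 1 and 6 without TKI258 replicate 3, where Rrp1b, Rrs1 and Nle1 were added.

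**Figure D1:**
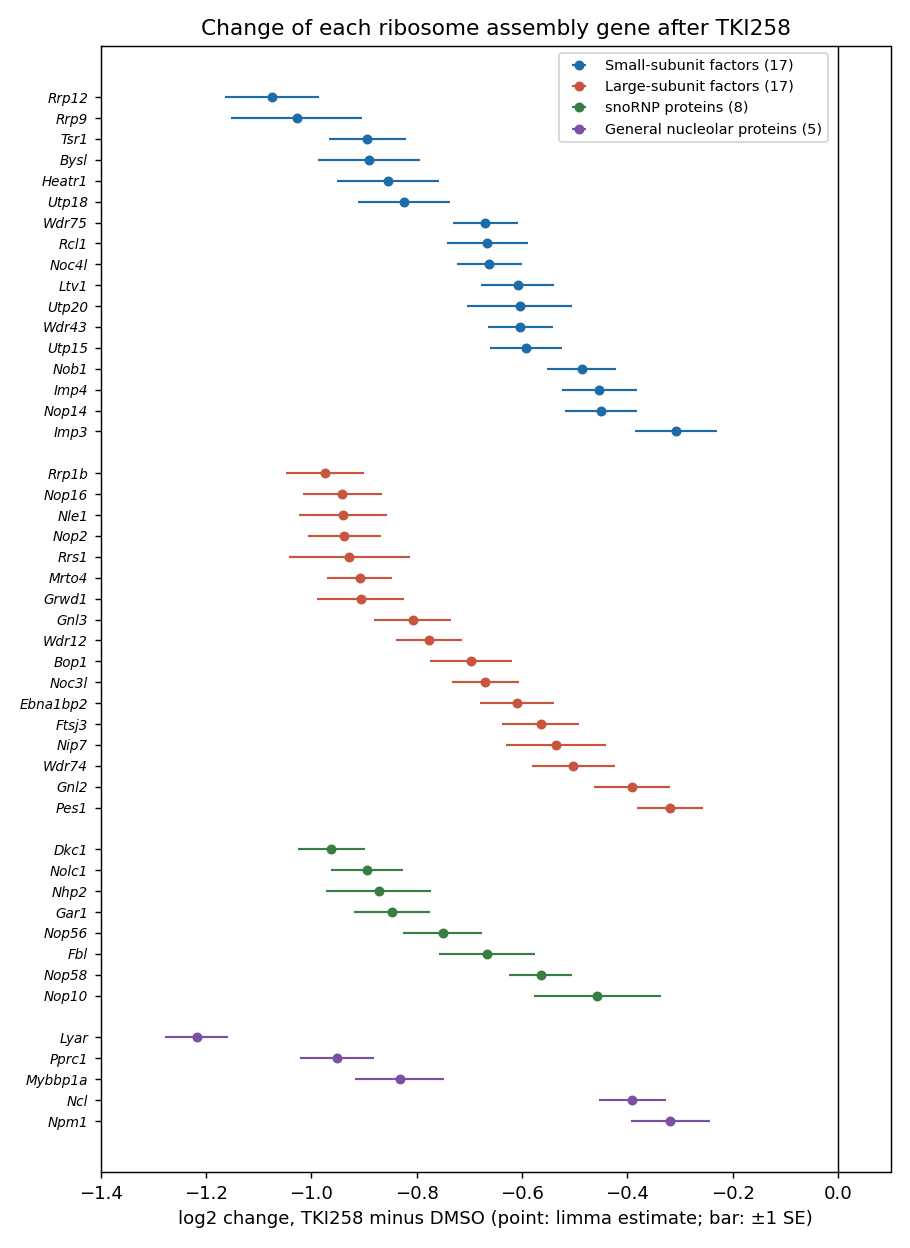
Log2 change of each of the 47 measured factors, TKI258 minus DMSO, in 4 functional classes, with points for limma's estimate and bars for 1 SE (n = 3 arrays per group). Every point lies left of 0, from Lyar at -1.22 to Imp3 at -0.31, and the classes span overlapping ranges.

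The 4 classes had similar middle values. The median log2 change was -0.66 for the small-subunit factors, -0.78 for the large-subunit factors, -0.80 for the snoRNP proteins and -0.83 for the general nucleolar proteins. Each class covered a wide range, with -1.08 to -0.31 for the small-subunit factors, -0.97 to -0.32 for the large-subunit factors, -0.96 to -0.46 for the snoRNP proteins and -1.22 to -0.32 for the 5 general proteins. These medians are descriptions, and the differences between classes were not tested. Counting the U3 proteins Rrp9, Imp3 and Imp4 with the snoRNPs gave medians of -0.66 for the small-subunit factors and -0.75 for the snoRNP proteins.

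The TKI258 arrays were not equally low. TKI258 replicate 1 was the lowest TKI258 array in 35 of the 47 factors, and TKI258 replicate 3 was the highest in 33. The median deviation of the factors from their own 6-array mean was -0.43, -0.34 and -0.29 on TKI258 replicates 1, 2 and 3, against 0.38, 0.36 and 0.39 on DMSO replicates 1, 2 and 3. The DMSO arrays shared the lowest place more evenly, in 17, 13 and 17 factors.

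**Figure D2:**
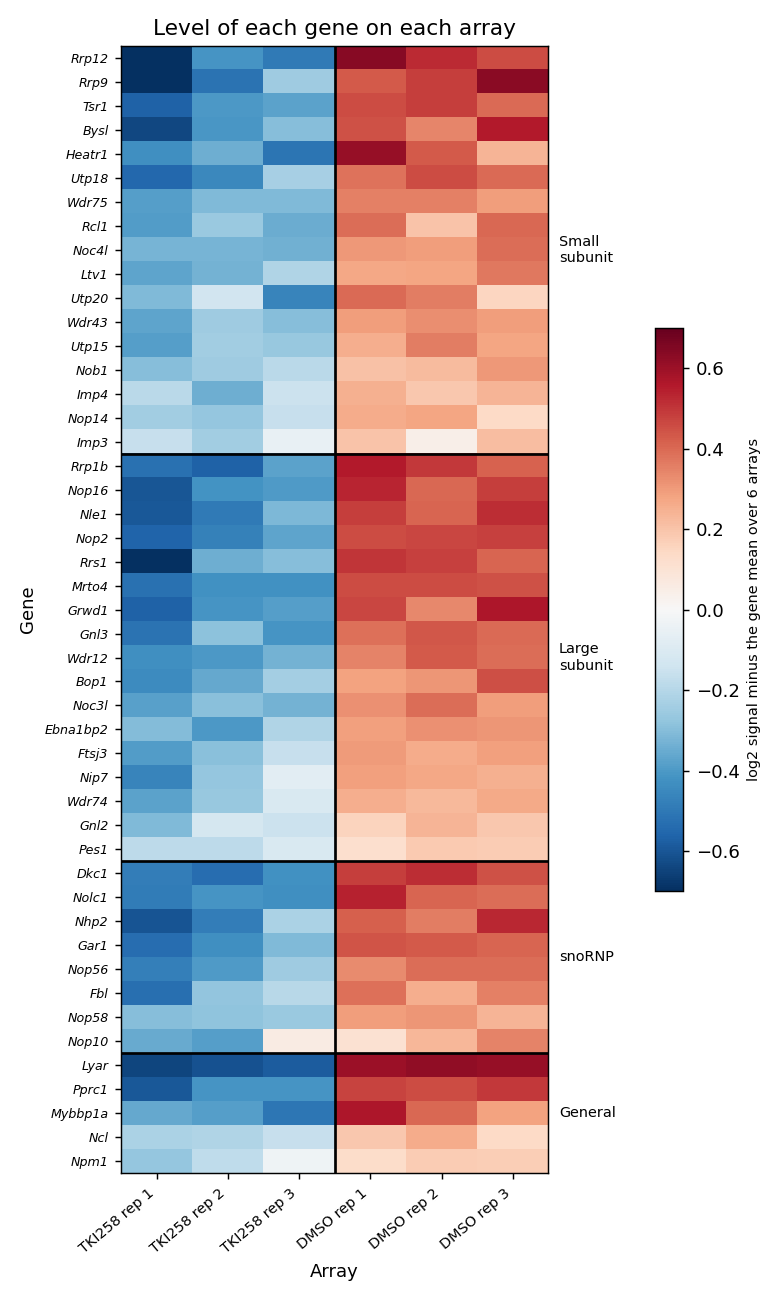
Heat map of the 47 factors (rows, by class) on the 6 arrays (columns, TKI258 left of DMSO), coloured by log2 signal minus the gene's mean over the 6 arrays. The TKI258 columns are below the gene mean throughout except in Nop10 on TKI258 replicate 3, and the palest of the TKI258 columns is mostly replicate 3.

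Because these genes fell together, the sequence before their start sites is shown for a few. RefSeq promoter windows (GRCm38.p6, 250 bases before to 50 after the start) were matched by symbol for 42 of the 48 genes. They were searched on both strands for CACGTG, the E-box that MYC and other basic helix-loop-helix factors bind, for its variant CACGCG, for CCGGAA, the core that ETS factors bind, and for TATAAA. The 130 bases before the start are printed for 3 genes with CACGTG there (Utp18, Imp4 and Nop2), for Nolc1 with CACGCG, for Gar1 with overlapping CCGGAA matches on both strands, and for Dkc1 and Lyar, the most lowered snoRNP gene and the most lowered gene of all, with no match in that stretch (TATAAA begins at -189 in Dkc1 and CACGCG at 16 in Lyar). Capitals mark the matches, and TTCCGG and CGCGTG are CCGGAA and CACGCG read on the other strand.
Utp18 (chr11:93885767-93885896, minus strand): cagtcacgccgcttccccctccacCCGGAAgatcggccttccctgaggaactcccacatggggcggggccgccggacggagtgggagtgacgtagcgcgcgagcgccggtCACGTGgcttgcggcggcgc
Imp4 (chr1:34439699-34439828, plus strand): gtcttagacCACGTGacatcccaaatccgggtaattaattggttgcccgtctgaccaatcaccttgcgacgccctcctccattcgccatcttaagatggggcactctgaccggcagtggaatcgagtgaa
Nop2 (chr6:125131753-125131882, plus strand): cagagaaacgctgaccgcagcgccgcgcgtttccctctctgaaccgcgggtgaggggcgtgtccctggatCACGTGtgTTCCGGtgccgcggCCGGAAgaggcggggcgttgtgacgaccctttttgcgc
Nolc1 (chr19:46075717-46075846, plus strand): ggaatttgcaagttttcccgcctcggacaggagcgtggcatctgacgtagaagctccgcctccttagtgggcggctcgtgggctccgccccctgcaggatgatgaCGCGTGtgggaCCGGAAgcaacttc
Gar1 (chr3:129831397-129831526, minus strand): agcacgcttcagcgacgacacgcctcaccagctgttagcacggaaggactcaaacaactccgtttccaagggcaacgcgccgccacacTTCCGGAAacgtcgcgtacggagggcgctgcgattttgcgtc
Dkc1 (chrX:75095724-75095853, plus strand): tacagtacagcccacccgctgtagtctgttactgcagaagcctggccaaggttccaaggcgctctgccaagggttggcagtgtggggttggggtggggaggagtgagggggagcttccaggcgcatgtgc
Lyar (chr5:38220352-38220481, plus strand): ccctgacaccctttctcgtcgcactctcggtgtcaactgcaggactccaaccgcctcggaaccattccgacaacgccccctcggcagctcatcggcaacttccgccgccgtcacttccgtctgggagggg

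CACGTG was present in the windows of 11 of the 42 genes, or 26.2%, against 9.5% of all 15614 measured genes in the table and 13.2% of the 4869 that were at least as bright as the dimmest factor. Of the 11, 6 encode small-subunit factors (Wdr43, Utp18, Utp20, Imp4, Tsr1 and Ltv1), 4 large-subunit factors (Nop2, Pes1, Grwd1 and Nle1) and 1 a general protein (Mybbp1a), while 0 of 7 snoRNP genes held it. In 8 of them the match lay after the start, and in Utp18, Nop2 and Imp4 it began at positions -20, -60 and -121, counted back from the start. CACGCG was found in 26.2% of the factors' genes. It was in 14.9% of all measured genes and 22% of those at least as bright as the dimmest factor. In the same order, CCGGAA was found in 45.2%, 22% and 36.9%, and TATAAA in 4.76%, 13.6% and 7.85%. The 11 genes with CACGTG had a median log2 change of -0.82, and the 30 measured ones without it -0.71, with ranges of -0.94 to -0.32 and -1.22 to -0.31. The medians with and without CACGCG were -0.85 and -0.67, and those with and without CCGGAA were -0.84 and -0.67. For TATAAA, present in 2 measured factors, they were -0.64 and -0.75. For each motif the ranges with and without it overlap. The differences were not tested, and a match describes the sequence only.

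Among the box C/D proteins, Nop56 and Nop58 form the scaffold of the particle and Fbl, fibrillarin, is its methyltransferase. Nop56 read 10.75, 10.83 and 10.98 log2 units in TKI258 arrays, against 11.56, 11.62 and 11.62 in DMSO arrays, a log2 change of -0.75 (SE 0.07, limma adjusted p = 9.07e-05). Nop58 read 10.84, 10.86 and 10.88 in TKI258 arrays and 11.43, 11.45 and 11.38 in DMSO arrays, a change of -0.56 (SE 0.06). Fbl read 8.84, 9.09 and 9.17 in TKI258 arrays, against 9.75, 9.62 and 9.72 in DMSO arrays, a change of -0.67 (SE 0.09). In all 3 genes the lowest DMSO array stood above the highest TKI258 array. A second Fbl probe set gave a smaller change of -0.44 (SE 0.07) with the groups also apart, at 8.87, 8.86 and 8.90 against 9.33, 9.23 and 9.40. Both probe sets were assigned by symbol alone, and which of them lies at the Fbl gene itself was not checked.

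The box H/ACA core consists of Dkc1, or dyskerin, the pseudouridine synthase that is mutated in dyskeratosis congenita, with Gar1, Nhp2 and Nop10, and the same proteins belong to telomerase. Dkc1 read 9.27, 9.22 and 9.33 log2 units in TKI258 arrays and 10.24, 10.27 and 10.20 in DMSO arrays, a log2 change of -0.96 (SE 0.06, limma adjusted p = 9.59e-06). Gar1 read 9.10, 9.20 and 9.32 against 10.07, 10.06 and 10.04 (TKI258 against DMSO), a change of -0.85 (SE 0.07). Nhp2 read 9.20, 9.32 and 9.58 against 10.22, 10.16 and 10.33, a change of -0.87 (SE 0.10). These 3 subunits fell to nearly the same degree, leaving 51.3% to 55.6% of the DMSO signal. Nop10, the small structural subunit, read 9.47, 9.44 and 9.88 in TKI258 arrays, against 9.93, 10.06 and 10.17 in DMSO arrays, a change of -0.46 (SE 0.12, limma adjusted p = 0.0202). TKI258 replicate 3 came close to the lowest DMSO array in that gene. The call of Nop10 was lost without TKI258 replicate 1 or 2 (adjusted p = 0.069 and 0.0699) and without DMSO replicate 2 or 3 (0.0555 and 0.0779). Nolc1, a chaperone of both kinds of snoRNP, read 8.86, 8.94 and 8.92 in TKI258 arrays and 9.89, 9.76 and 9.74 in DMSO arrays, a change of -0.89 (SE 0.07).

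The t-UTP complex binds the earliest part of the precursor and is linked to its transcription. Within the small-subunit class, its factors had log2 changes between -0.85 and -0.59. Heatr1 changed by -0.85 (SE 0.10), with 8.64, 8.73 and 8.56 log2 units in TKI258 arrays against 9.68, 9.50 and 9.31 in DMSO arrays. Wdr75, Wdr43 and Utp15 changed by -0.67, -0.60 and -0.59, each with groups that did not overlap. Utp18, of the complex that joins next, read 7.84, 7.94 and 8.16 in TKI258 arrays, against 8.77, 8.85 and 8.79 in DMSO arrays, a change of -0.82 (SE 0.09). Other processome members were Utp20 at -0.60 and Rcl1, known in yeast to be needed for cleavage of the precursor, at -0.67. Noc4l and Nop14, whose yeast counterparts bind each other, changed by -0.66 and -0.45.

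The 3 U3 proteins counted in the small-subunit class, Rrp9, Imp3 and Imp4, had log2 changes between -1.03 and -0.31. Rrp9, the WD-repeat protein that binds U3 RNA, read 7.65, 7.91 and 8.18 log2 units in TKI258 arrays, against 8.86, 8.91 and 9.06 in DMSO arrays, a log2 change of -1.03 (SE 0.12, limma adjusted p = 0.000277). Imp4 read 9.61, 9.46 and 9.65 in TKI258 arrays and 10.05, 9.99 and 10.04 in DMSO arrays, a change of -0.45 (SE 0.07). Imp3 read 9.46, 9.38 and 9.57 in TKI258 arrays, against 9.82, 9.66 and 9.84 in DMSO arrays, a change of -0.31 (SE 0.08, limma adjusted p = 0.0163), the smallest of all 47. Its groups came close to each other without overlapping, and its call was lost without TKI258 replicate 2, DMSO replicate 1 or DMSO replicate 3 (adjusted p = 0.0592, 0.0646 and 0.0655).

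Factors that stay with the small subunit until late, in the nucleus and cytoplasm, included the largest fall of the class. Rrp12, a HEAT-repeat protein needed for export in yeast, read 7.14, 7.43 and 7.35 log2 units in TKI258 arrays, against 8.48, 8.37 and 8.30 in DMSO arrays, a log2 change of -1.08 (SE 0.09, limma adjusted p = 3.36e-05). Tsr1, a GTPase-like factor, read 9.67, 9.83 and 9.86 in TKI258 arrays and 10.69, 10.72 and 10.63 in DMSO arrays, a change of -0.89 (SE 0.07). Bysl, or bystin, read 7.69, 7.92 and 8.03 against 8.77, 8.67 and 8.88 (TKI258 against DMSO), a change of -0.89 (SE 0.10). In each of these the gap between the groups exceeded the spread within either. Ltv1 changed by -0.61 and Nob1, the endonuclease that makes the 3′ end of 18S rRNA, by -0.49.

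In the large-subunit class the PeBoW complex of Pes1, Bop1 and Wdr12, which is needed to process the 28S and 5.8S precursors, had log2 changes between -0.78 and -0.32. Pes1 read 9.75, 9.75 and 9.83 log2 units in TKI258 arrays, against 10.05, 10.12 and 10.11 in DMSO arrays, a log2 change of -0.32 (SE 0.06, limma adjusted p = 0.00445). Bop1 read 8.46, 8.54 and 8.66 in TKI258 arrays and 9.18, 9.21 and 9.35 in DMSO arrays, a change of -0.70 (SE 0.08). Wdr12 read 9.41, 9.44 and 9.51 in TKI258 arrays, against 10.19, 10.27 and 10.23 in DMSO arrays, a change of -0.78 (SE 0.06). Pes1 kept 80.1% of the DMSO signal, while Bop1 kept 61.7% and Wdr12 58.4%. The other Wdr12 probe set changed by -0.86 (SE 0.11), and which of them lies at the Wdr12 gene itself was not checked.

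The changes of subunits of a particle were set side by side in 15 pairs from the box C/D, box H/ACA, PeBoW and U3 particles, as the difference between the pair's log2 values on each array. The pairs were formed after the values of the factors were known, and the counts are a description. In 9 pairs these differences did not overlap between TKI258 and DMSO arrays. Single genes had groups apart in either direction in 40.2% of all genes, and the share among other gene pairs was not computed. The 9 pairs were Nop56 with Nop58, Nop10 with each of Dkc1, Gar1 and Nhp2, Pes1 with each of Bop1 and Wdr12, and the 3 pairs of U3 proteins. The widest gap was between Rrp9 and Imp3, where the log2 changes differed by -0.72 (Rrp9 minus Imp3). With 3 arrays a group, the exact two-sided permutation test cannot give less than p = 0.1, which these 9 pairs reached (adjusted p = 0.167 over the 15 pairs). No pair could pass a threshold of 0.05, so unequal falls within a particle were not shown.

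Enzymes and GTPases that act on the large subunit had log2 changes between -0.94 and -0.39. Nop2, a cytosine methyltransferase of 28S rRNA, read 8.95, 9.04 and 9.14 log2 units in TKI258 arrays, against 9.97, 9.98 and 9.99 in DMSO arrays, a log2 change of -0.94 (SE 0.07, limma adjusted p = 1.78e-05). Gnl3, the GTPase nucleostemin, read 9.64, 9.87 and 9.74 in TKI258 arrays and 10.54, 10.59 and 10.55 in DMSO arrays, a change of -0.81 (SE 0.07), while the related GTPase gene Gnl2 changed by -0.39 (SE 0.07). Ftsj3, whose yeast counterpart Spb1 is a methyltransferase, changed by -0.56 (SE 0.07). Both GTPase genes had groups that stood apart, with the lowest DMSO array of Gnl2 at 9.32 and its highest TKI258 array at 9.04.

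The structural and placeholder factors of the large subunit included its largest fall. Mrto4, which in yeast holds the place of a stalk protein, read 9.36, 9.46 and 9.46 log2 units in TKI258 arrays and 10.34, 10.34 and 10.33 in DMSO arrays, a log2 change of -0.91 (SE 0.06, limma adjusted p = 1.13e-05), and its other probe set gave -0.90. Rrp1b read 7.51, 7.47 and 7.66 in TKI258 arrays, against 8.59, 8.53 and 8.45 in DMSO arrays, a change of -0.97 (SE 0.07), the largest of the class. Rrs1, which in yeast helps to install the 5S particle, read 8.71, 9.12 and 9.16 in TKI258 arrays and 9.96, 9.94 and 9.87 in DMSO arrays, a change of -0.93 (SE 0.11), with TKI258 replicate 1 well below the others. Nop16 and Nle1, the counterpart of yeast Rsa4, both changed by -0.94, and Grwd1, a chaperone of a ribosomal protein in yeast, by -0.91. Smaller falls were found in Noc3l at -0.67, Ebna1bp2 at -0.61, Nip7 at -0.53 and Wdr74 at -0.50. In Nip7 TKI258 replicate 3 read 7.95, nearest to the DMSO arrays at 8.27 to 8.31.

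The general nucleolar proteins held both the largest fall of the 47 and some of the smallest. Lyar, a nucleolar zinc finger protein linked to cell growth and rRNA processing, read 8.48, 8.51 and 8.54 log2 units in TKI258 arrays, against 9.72, 9.74 and 9.73 in DMSO arrays. Its log2 change was -1.22 (SE 0.06, limma adjusted p = 2.12e-06), which left 43.0% of the DMSO signal, and the groups lay more than a log2 unit apart with almost no spread. Pprc1, a transcriptional coactivator of the PGC-1 family rather than an assembly factor, read 8.06, 8.24 and 8.24 in TKI258 arrays and 9.13, 9.11 and 9.15 in DMSO arrays, a change of -0.95 (SE 0.07). Mybbp1a, a nucleolar MYB-binding protein, read 9.97, 9.94 and 9.82 in TKI258 arrays, against 10.89, 10.73 and 10.61 in DMSO arrays, a change of -0.83 (SE 0.09).

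The abundant nucleolar proteins nucleolin and nucleophosmin changed least in that class. Ncl, nucleolin, read 11.38, 11.39 and 11.44 log2 units in TKI258 arrays and 11.79, 11.86 and 11.74 in DMSO arrays, a log2 change of -0.39 (SE 0.06, limma adjusted p = 0.00156). Npm1, nucleophosmin, read 11.33, 11.42 and 11.57 in TKI258 arrays, against 11.73, 11.78 and 11.77 in DMSO arrays, a change of -0.32 (SE 0.08, limma adjusted p = 0.0117). The 3 probe sets annotated to both Npm1 and the predicted gene Gm15484 gave -0.17, -0.15 and -0.16 and did not pass (limma adjusted p = 0.0847, 0.115 and 0.1 over all probe sets). Over the 47 factors the log2 change and the mean log2 signal had a Pearson r of 0.405 and a Spearman rho of 0.38, so brighter probe sets tended to change less. The points share the same 6 arrays, and signal also depends on each probe set's own binding.

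**Figure D3:**
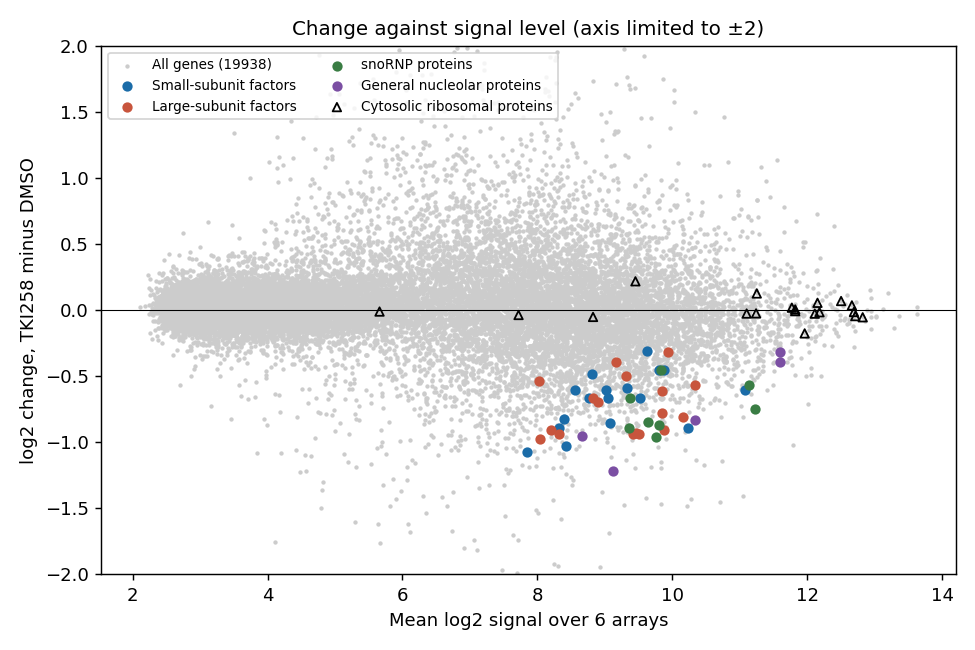
Log2 change (TKI258 minus DMSO) against mean log2 signal over 6 arrays for all 19938 genes (grey), the 47 factors (colours by class) and 19 cytosolic ribosomal protein genes (open triangles), with changes beyond 2 in either direction cropped. The factors lie between 7.84 and 11.6 log2 units and between -1.22 and -0.31 in change, while the ribosomal protein genes lie between -0.18 and 0.22.

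Some factors carry snoRNA genes within their annotated bounds in the RefSeq gene table. Any annotated snoRNA gene lay within 7 of the 47 factors (14.9%), against 324 of 18565 measured coding genes (1.75%). Counting named Snord or Snora genes alone, it was 6 factors (12.8%), against 52 coding genes (0.28%). The 6 were Wdr43, Tsr1, Gnl3, Nop56, Nop58 and Ncl. Of these snoRNAs 4 had a probe set of their own, tested with all 35557 probe sets, of which 7.86% were called lower. Snora75, a box H/ACA RNA inside Ncl, read 5.81, 5.80 and 6.12 log2 units in TKI258 arrays and 6.88, 7.01 and 6.34 in DMSO arrays, a log2 change of -0.83 (SE 0.19, limma adjusted p = 0.0318), with DMSO replicate 3 nearest to the TKI258 arrays. Snord82, also inside Ncl, had -0.57 (adjusted p = 0.0698), Snord53 inside Wdr43 had -0.66 (0.0534) and Snord57 inside Nop56 had 0.21 (0.289), and these did not pass. Snord57 was the only measured one of the snoRNA genes inside Nop56.

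The wider assembly pathway was described with 4 further lists, chosen by function with earlier results of these data known. Their counts are a description. Of 95 measured genes in them 78 were lower, 0 higher and 17 did not pass, with a median log2 change of -0.49. Those 78 are 82.1% of the 95, against 12.6% called lower over all genes and 27.5% over the genes at least as bright as the dimmest factor. Other small-subunit factors were lower in 28 of 32 cases, with Mphosph10, the partner of Imp3 and Imp4, at -0.97, the acetyltransferase gene Nat10 at -0.91 and Pno1 at -0.88, while Dcaf13, Fcf1, Ngdn and Rrp36 did not pass. Other large-subunit factors were lower in 28 of 32 cases, with Mak16 at -0.87, Rrp15 at -0.84 and Rpf2, the partner of Rrs1, at -0.83, while Nsa2, Nop53, Senp3 and Sbds did not pass. Among snoRNP assembly factors 9 of 12 were lower, with Naf1, which delivers H/ACA proteins, at -0.98, the helicase gene Ruvbl2 at -0.65 and Znhit6 at -0.62, and Pih1d1, Shq1 and Coil did not pass. In the exosome and rRNA nuclease list 13 of 19 were lower, with the RNase MRP and RNase P subunit genes Pop1 and Rpp40 at -1.08 and -1.04 and the exosome nuclease gene Dis3 at -0.88.

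Cytosolic ribosomal protein genes, which encode what these factors assemble, gave different values. Of 19 measured, 0 were lower and 0 higher in limma after adjustment, and 2 had an unadjusted p below 0.05, with a median log2 change of -0.01. Rpl22 had 0.22 (limma adjusted p = 0.0782) and Rpl8 had -0.18 (limma adjusted p = 0.103), and Rpl8 passed without TKI258 replicate 3 (adjusted p = 0.0306). Their probe sets were brighter, with a median level of 11.82 log2 units against 9.42 for the factors. The part of signal level in this difference was not tested. Many ribosomal protein genes have near-identical pseudogenes, and 8 of the 27 listed had no probe set with a single symbol.

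**Figure D4:**
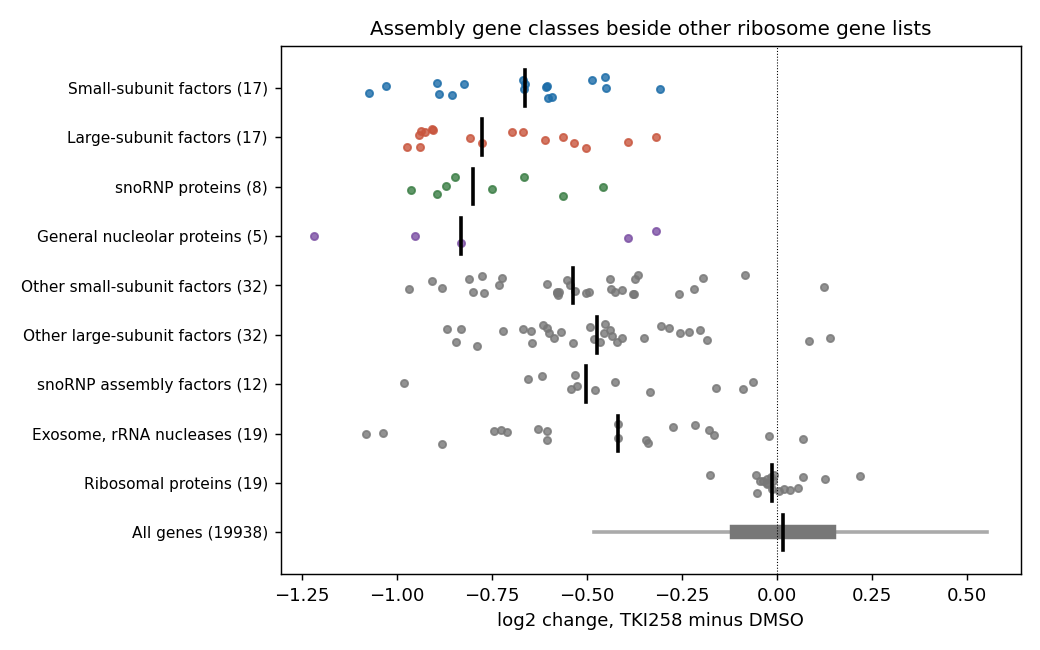
Log2 change (TKI258 minus DMSO) of each gene in the 4 classes of factors (colours), in 4 further assembly lists and in the cytosolic ribosomal proteins (grey points), with a black bar at each median and, for all 19938 genes, a thick bar over the middle 50% and a thin bar from the 5th to the 95th percentile. Class medians run from -0.83 to -0.66, those of the further assembly lists from -0.54 to -0.42, and that of the ribosomal proteins is -0.01.

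In the MYC family Myc itself fell, with 10.07, 10.13 and 10.12 log2 units in TKI258 arrays, against 10.76, 10.74 and 10.83 in DMSO arrays, a log2 change of -0.67 (SE 0.06, limma adjusted p = 6.13e-05). Mxd4, which encodes a repressor that competes with MYC for its partner MAX, rose to 8.83, 8.81 and 8.83 in TKI258 arrays, against 6.84, 6.44 and 6.91 in DMSO arrays, a change of 2.10 (SE 0.11, limma adjusted p = 3.52e-06). The related gene Mxd1 rose by 0.32 (limma adjusted p = 0.0261), a call lost without any single array except TKI258 replicate 1 (adjusted p from 0.0568 to 0.0809). The other 7 of the 10 genes did not pass, and 3 called of 10 is near the 27% of all genes called in either direction.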

How the data were processed

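Each of the 6 arrays had 35557 deposited values. The submitters' processing notes name RMA, affy and limma, with neither a version nor a role. The authors' deposited values were taken as log2 signals from their range, 1.62 to 13.96 over the 6 arrays together. The sources used here do not name the base. In general RMA sets arrays to a common distribution, so a change common to every gene would not be seen, and changes of dim probe sets shrink.

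Names came from an annotation of the platform dated 2016, with 21789 having 1 symbol, 1621 several and 12147 none there. Gene IDs of 21698 were found in the RefSeq table of GRCm38.p6, and 0 symbols changed. The fit used limma 3.58.1 (lmFit, then eBayes; R 4.3.3) on all 19938 genes, with treatment as the only term, no filter, and two-sided p-values adjusted by Benjamini-Hochberg over all genes. The precision is limited by the number of arrays. The test was checked on simulated data.

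All 48 factors are named. From each other list came the 3 largest changes past the threshold, or the 2 smallest adjusted p where none passed, and Myc. Genes outside this rule, such as those of a list that did not pass, were named after their values were seen. The factors and lists were chosen with earlier results of these data known. Promoters were searched in Python 3.11.15. The settings varied were a block for the replicate number, leaving out single arrays, quantile normalization done anew, centring on medians, removal of dim genes, other probe set choices, other variance settings, array weights, an adjusted p of 0.01 and the treat test of limma with a fold of 1.2. The U3 proteins were also counted as snoRNPs.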

Additional observations from a re-analysis of the deposited data

Results flagged for a closer look

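Some probe sets that the comparison of genes left out read the factors or snoRNAs within them, and 4 of these differed between TKI258 and DMSO when all probe sets were tested singly in limma. The second probe sets of Fbl, Mrto4 and Wdr12 had log2 changes of -0.44, -0.90 and -0.86 (adjusted p = 0.00659, 0.000379 and 0.00429), in the direction of the probe sets used. Snora75, inside Ncl, had -0.83 (adjusted p = 0.0318). Of all probe sets 7.86% were called lower in that fit.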

How the results depend on the processing

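Each of the 47 factors was recomputed under 17 alternatives. Of these 799 values 0 changed sign, 776 kept their call and 23 lost it. The losses were in Imp3, Imp4, Nop10, Nop14, Npm1, Ncl, Pes1, Gnl2, Nip7 and Wdr74. The replicate block, removal of dim genes, other variance settings, the stricter threshold on adjusted p and treat leave every log2 change as it was. No sign could change there. Other probe set choices could alter the log2 change of only Fbl, Mrto4 and Wdr12, which had a second probe set. In all 47 factors every TKI258 array lay below every DMSO array, so array weights and leaving out arrays could not change a sign either. That left renewed quantile normalization and centring. Centring moved every log2 change by the same small amount, with Imp3, the smallest, going from -0.307 to -0.331. The alternatives left 37 to 47 factors called lower, the fewest with treat against a fold of 1.2, whose construction asks for a larger change. Under treat the general nucleolar proteins had 3 calls, the other large-subunit factors 13 and all genes 1921, against 5385 in the fit reported. The other alternatives gave 3724 to 6022 genes. Leaving out 1 array gave 45 to 47 calls and a median log2 change of -0.75 to -0.67 for the factors and of -0.90 to -0.76 for the general proteins. Ribosomal protein genes had 1 call with renewed quantile normalization, 2 without dim genes, 3 with trend and robust, 2 without moderation of variance and 0 to 1 with an array left out. The MYC family had 5 calls without dim genes. The cause of these moves was not tested.

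Same-numbered TKI258 and DMSO arrays had deviations correlated at 0.0181, 0.0501 and 0.151. Arrays of unlike number had -0.113 to 0.0727. With 3 arrays a group these values cannot settle whether the numbers pair the samples. With the replicate number as a block 47 factors and 5364 genes were called. The dimmest probe set per gene was an alternative chosen after seeing the data. With 3 arrays a group and no detection calls, small changes of dim genes are the least certain.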

Other observations

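Npm1 is also read by 3 probe sets annotated to both Npm1 and the predicted gene Gm15484, which took part in no comparison. In each of them every TKI258 array lay below every DMSO array, with log2 changes of -0.17 to -0.15 that did not pass in limma, while the probe set with Npm1 alone gave -0.32.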
